A study of Mus musculus with 195 samples.

Results

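The mitochondrial genome transcripts comprised every gene annotated on the mitochondrial chromosome that received at least 1 molecule in single cells of 3 populations, named ESC-2i, ESC-FCS and NSC. Of 37 annotated mitochondrial genes, 34 did so, among 19524 genes with a molecule in the 3 populations. All 13 mRNA genes and both rRNA genes were among them, as were 19 of the 22 tRNA genes, whereas mt-Ta, mt-Tc and mt-Ty had no molecule. The study measured 3′ ends with BATSeq, in which an oligo-dT primer carries a cell barcode and a unique molecular identifier (UMI), so that each value is a count of distinct molecules per 3′ end. ESC-2i and ESC-FCS were mouse embryonic stem cells of the 46C line, which reports Sox1 with GFP, grown respectively with 1 µM PD0325901, 3 µM CHIR99021 and 10 ng/ml LIF or with 10% FBS and 10 ng/ml LIF. NSC were neural stem cells derived from the same line and kept with EGF, bFGF and the supplements N2 and B27. The ESC-2i medium also held N2 and B27. Each population had 48 cells sorted as small cells in G0/G1, in 2 library batches of 24 wells, and the separately made libraries were 48 further ESC-FCS cells (ESC-FCS control), 1 pool of 48 ESC-FCS cells and 2 pools of 48 ESC-2i cells. The sample titles name wells but no batch. Batch 1 here means well rows A to D and batch 2 rows E to H. This split is an assumption from the methods, which pooled neighbouring wells into batches of 24 cells. Where 3 values follow each other without names, the order is ESC-2i, ESC-FCS, NSC. The labels name no replicate culture, so no test between populations was possible and every interval below covers counting error only. The methods state that mitochondrial reads and rRNA reads were removed. The molecules described here are therefore those that remained, and their level is not that of mitochondrial RNA in the cell.

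Mitochondrial DNA is transcribed from both strands into long RNAs that run across many genes. The tRNAs lie between most of the mRNAs and rRNAs, and their excision releases the neighbouring transcripts. Most of the mRNAs then receive a short poly-A tail, and where the gene itself ends in an incomplete stop codon that tail supplies the missing bases. The encoded proteins are subunits of respiratory complexes I, III, IV and V, whose remaining subunits come from nuclear genes.

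The 4 mRNA ends with the most molecules and that of mt-Nd5, which had 0 molecules within 10 nt of its end, are shown here because they differ in how the reading frame closes. Each is the last 30 bases of the gene on the plus strand, from the GRCm38 transcripts of GENCODE vM21, with the closing bases of the frame in capitals.
mt-Cytb, MT:15259-15288: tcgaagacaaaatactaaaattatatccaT
mt-Nd4, MT:11515-11544: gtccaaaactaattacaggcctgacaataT
mt-Nd2, MT:4922-4951: ctacccctagccccccaactaattaccTAG
mt-Nd1, MT:3678-3707: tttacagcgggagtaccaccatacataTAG
mt-Nd5, MT:13536-13565: attatcttatactcaattaatctcgagTAA
The mt-Cytb and mt-Nd4 genes close on a lone T, which leaves a remainder of 1 base after whole codons, and mt-Co3 is the third of the 13 mRNA genes that does so. The mt-Nd2 and mt-Nd1 genes hold a complete TAG, and their last 2 bases are also the first bases of the tRNA genes mt-Tw and mt-Ti. The mt-Nd5 gene closes on TAA and is the exception among these 5, because no plus-strand tRNA gene follows it before mt-Cytb starts at 14145.

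Cells with at least 1000 gene molecules were kept, which left 33 ESC-2i, 33 ESC-FCS, 41 NSC and 42 ESC-FCS control cells. Gene molecules per kept cell ranged from 5342 to 21049 in ESC-2i, from 1079 to 14819 in ESC-FCS and from 1234 to 9037 in NSC. Of 9 embryonic stem cell markers all were seen in both ESC populations, at 30.9 and 26.1 molecules per 10000 summed, and 2 in NSC at 0.132, with Nanog, Pou5f1 and Zfp42 at 0. The 9 neural stem cell markers summed to 55.1 in NSC against 1.95 and 1.59, the 6 neuron markers to 4.67 against 0.190 and 0.794, and the astrocyte, endoderm and fibroblast lists to at most 0.543 anywhere.

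Mitochondrial genes took a larger share of the gene molecules in NSC than in either ESC population. Pooled over cells, the share was 1.72% in ESC-2i (6334 of 368363 molecules, 95% exact binomial interval 1.68 to 1.76) and 1.94% in ESC-FCS (4409 of 226684, 1.89 to 2.00). It was 5.09% in NSC (7723 of 151877, 4.98 to 5.20). The lowest, median and highest cell stood at 0.473%, 1.71% and 4.89% among ESC-2i, at 0.522%, 1.57% and 4.49% among ESC-FCS and at 1.12%, 4.75% and 13.6% among NSC. The NSC cells were thus shifted upwards as a whole, with 39 of 41 above the median of ESC-2i and 39 of 41 above that of ESC-FCS, although the ranges overlapped. More than 5% of gene molecules were mitochondrial in 17 NSC cells and in 0 cells of either ESC population, while fewer than 1% were mitochondrial in 11 ESC-2i, 7 ESC-FCS and 0 NSC cells.

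The NSC share was 2.96 times that of ESC-2i (2.86 to 3.06) and 2.61 times that of ESC-FCS (2.52 to 2.71). Library batches gave 1.72% and 1.72% for ESC-2i, 2.07% and 1.78% for ESC-FCS and 6.09% and 3.97% for NSC, so that the 4 pairs of batches spanned ratios of 2.31 to 3.55 for NSC over ESC-2i and 1.92 to 3.42 for NSC over ESC-FCS. For ESC-FCS over ESC-2i the ratio was 1.13 (1.09 to 1.18), with batch pairs from 1.03 to 1.20 and 15 of 33 ESC-FCS cells above the ESC-2i median. A separately made set of cells with the same label gives a rough scale for these ratios. The ESC-FCS control cells held 1.15% (1.10 to 1.19), and ESC-FCS exceeded them by a factor of 1.70 (1.62 to 1.78). The ESC-FCS to ESC-2i ratio was below that factor, and both NSC ratios were above it. The factor was not shared evenly among mitochondrial molecules. Those assigned to tRNA genes made up 31.6% of mitochondrial molecules in ESC-FCS and 6.34% in the control cells. At the mt-Cytb, mt-Nd4, mt-Nd1 and mt-Nd2 ends, ESC-FCS exceeded the control cells by factors of 1.17, 1.27, 1.38 and 1.69. Mitochondrial molecules were covered by 12.2 reads each in ESC-FCS and 7.04 in the control cells. The part of sequencing depth in the factor was not tested.

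A share cannot separate more mitochondrial molecules from fewer nuclear ones. The median kept cell had 164, 105 and 135 mitochondrial molecules, among medians of 10864, 6375 and 3282 gene molecules. Per cell, mitochondrial molecule counts in NSC therefore lay between those of the ESC populations while total molecules were lowest. Spike-in RNA took a median of 7.78%, 3.91% and 9.49% of the molecules per cell, and its part in the difference was not tested. Mitochondrial molecules were covered by 14.5, 12.2 and 16.1 reads each, against 12.8, 11.1 and 13.0 for nuclear molecules.

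**Figure D1:**
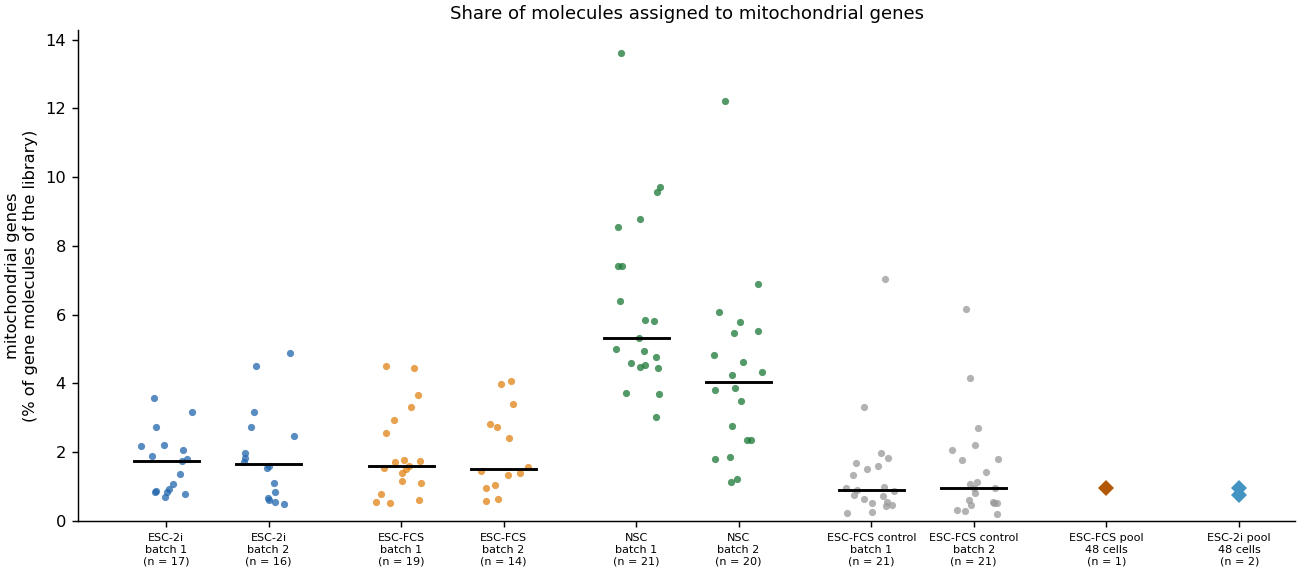
Share of gene molecules assigned to mitochondrial genes (%), 1 point per library, with kept cells split by library batch and black lines at the median over cells. The median was 5.32% and 4.05% in the 2 NSC batches and between 1.51% and 1.73% in the ESC-2i and ESC-FCS batches, whereas the 3 pools lay between 0.750% and 0.958%.

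Most mitochondrial molecules ended where an annotated transcript ends. Of 18466 molecules in the 3 populations, 71.7% lay within 10 nt of the end of the gene to which they were assigned, and 18347 carried the label of a gene on the plus strand against 119 on the minus strand. A single site held nearly all the molecules of each leading mRNA. For mt-Cytb, the complex III subunit cytochrome b, 4567 of 4658 molecules were at 15284, and for mt-Nd4 3066 of 3145 were at 11536. For mt-Nd2 3305 of 3497 were at 4947, and for mt-Nd1 1885 of 1942 were at 3700; these 3 genes encode complex I subunits. Each site therefore lay between 4 and 8 bases before the annotated last base, inside the 30 bases printed above. Nuclear genes on the plus strand showed the same kind of offset, most often at 4 bases before their annotated ends, and positions in the files may differ by 1 base from the annotation's numbering.

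Molecules within 200 nt of these ends are compared here because they do not depend on how reads from elsewhere were labelled. The mt-Cytb end was the most abundant, at 40.0, 44.7 and 143 molecules per 10000 gene molecules. Its lowest, median and highest cell stood at 9.40, 37.1 and 185 among ESC-2i, at 10.4, 34.4 and 139 among ESC-FCS and at 23.4, 147 and 373 among NSC. Of 41 NSC cells 39 were above the median of each ESC population, and 11 were above the highest ESC-2i cell and 23 above the highest ESC-FCS cell, so that the ranges overlapped.

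NSC was highest at each of the 3 complex I ends, whereas the order of the ESC populations differed among them. The mt-Nd2 end stood at 33.0, 24.4 and 111, with the lowest, median and highest cell at 11.5, 31.2 and 89.1 for ESC-2i, at 4.90, 23.6 and 117 for ESC-FCS and at 31.2, 107 and 248 for NSC. All 41 NSC cells were above the median of each ESC population, and 29 were above the highest ESC-2i cell. The mt-Nd4 end stood at 31.8, 30.9 and 82.0, with median cells at 28.3, 24.7 and 82.2, so that the ESC populations were nearly level. The mt-Nd1 end stood at 15.8, 18.7 and 59.6, with median cells at 12.3, 14.7 and 50.2, and it was seen in 32, 32 and 41 cells. In NSC the order of the ends was thus mt-Cytb, mt-Nd2, mt-Nd4 and mt-Nd1, whose intervals did not overlap (137 to 149, 106 to 117, 77.5 to 86.7 and 55.8 to 63.6). In ESC-2i the intervals of mt-Nd2 (31.2 to 34.9) and mt-Nd4 (30.0 to 33.6) overlapped. Levels of different ends count molecules, which BATSeq takes once per 3′ end whatever the transcript length.

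Molecules at the end of the large ribosomal RNA and those labelled mt-Nd5 near its annotated end were scarcer. The mt-Rnr2 gene, which encodes the large rRNA of the mitochondrial ribosome, had 294 of 409 molecules at 2672 near its end at 2675, and its end stood at 4.26, 5.96 and 7.51. The mt-Nd5 gene, a complex I subunit, had 0 molecules within 10 nt of its annotated end at 13565. Of its 378 molecules, 358 lay within 200 nt of that end, with the most frequent site at 13755 (136 molecules), past the end of the gene, and their level was 2.96, 4.50 and 9.68. Both were missing from some cells of every population: mt-Rnr2 was seen in 29 of 33, 28 of 33 and 32 of 41 cells, and mt-Nd5 in 27, 25 and 36.

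**Figure D2:**
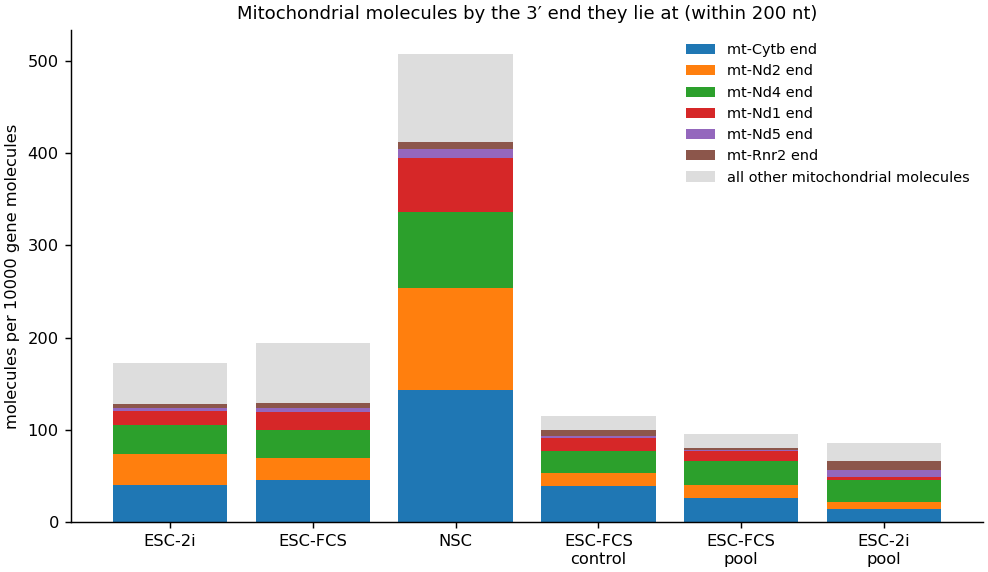
Mitochondrial molecules per 10000 gene molecules in each set of libraries, stacked by the annotated 3′ end within 200 nt of which they lay and whose gene labels them, with the remaining mitochondrial molecules in grey. The NSC bar is the tallest, with 143 molecules at the mt-Cytb end, while the ESC-2i pools had 13.5 there and 23.8 at the mt-Nd4 end.

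NSC stood above both ESC populations at each of the 4 abundant mRNA ends. NSC over ESC-2i gave 3.76 at mt-Nd1 (95% exact interval 3.39 to 4.19), 3.57 at mt-Cytb (3.34 to 3.82), 3.37 at mt-Nd2 (3.13 to 3.63) and 2.58 at mt-Nd4 (2.38 to 2.80). All 4 ratios were above 1 in 4 of 4 pairs of batches, and the interval of mt-Nd4 was below those of the other 3. NSC over ESC-FCS gave 4.56 at mt-Nd2 (4.14 to 5.03), 3.19 at mt-Cytb (2.96 to 3.45), 3.18 at mt-Nd1 (2.83 to 3.57) and 2.65 at mt-Nd4 (2.42 to 2.91), again above 1 in every pair of batches. The 2 sets of ratios share the NSC cells.

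Between the ESC populations only the mt-Nd2 end was lower in ESC-FCS in every pair of batches, among the 6 ends compared. Its ratio was 0.740 (0.668 to 0.819), with batch pairs from 0.641 to 0.882 and 9 of 33 ESC-FCS cells above the ESC-2i median. At mt-Cytb the ratio was 1.12 (1.03 to 1.21), at mt-Nd1 1.18 (1.04 to 1.34) and at mt-Nd4 0.974 (0.885 to 1.07), and at each of these the batch pairs lay on both sides of 1. The same end differed by more between separately made ESC-FCS cells: mt-Nd2 stood at 24.4 in ESC-FCS and 14.4 in ESC-FCS control, a ratio of 1.69 (1.47 to 1.94).

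The scarce ends showed less even ratios. At mt-Rnr2, NSC over ESC-2i was 1.76 (1.37 to 2.26), above 1 in 4 of 4 pairs of batches, and NSC over ESC-FCS was 1.26 (0.974 to 1.63), above 1 in 2 of 4. For molecules labelled mt-Nd5 near its annotated end the ratios were 3.27 (2.54 to 4.23) and 2.15 (1.66 to 2.80), above 1 in 4 and 3 of 4 pairs. The rRNA end had the lowest ratio of the 6 ends in both NSC comparisons. The part of the stated removal of rRNA reads in its level was not tested.

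**Figure D3:**
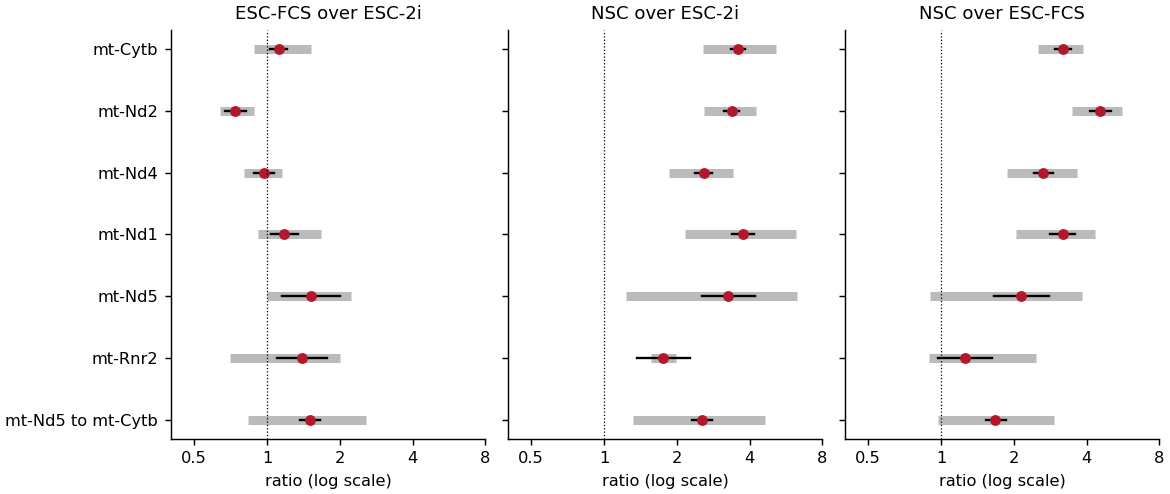
Ratio of molecules per 10000 gene molecules between populations (log axis) for 6 annotated 3′ ends and the stretch from mt-Nd5 to mt-Cytb; red points are pooled ratios, black lines 95% exact intervals of counting error and grey bars the range over 4 pairs of library batches. The NSC ratios at the 4 abundant mRNA ends lie between 2.58 and 4.56, and mt-Nd2 is at 0.740 for ESC-FCS over ESC-2i.

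Counted by the gene label of each molecule, mitochondrial genes past a ratio of 2 were mostly higher in NSC. A gene was tested where its molecules in the pair of populations summed to at least 20. By this rule 13 of 19 mitochondrial genes were past 2 and higher in NSC than in ESC-2i, against 19.3% of all 4803 genes tested, and 0 were past it and lower, against 24.3%. For NSC over ESC-FCS the counts were 11 of 22 higher, against 20.9% of 3600 genes, and 3 lower, against 18.4%. For ESC-FCS over ESC-2i they were 5 of 18 higher, against 8.17% of 5007 genes, and 1 lower, against 14.5%. The median ratio over mitochondrial genes tested was 2.69, 1.89 and 1.24 in these comparisons, beside 1.01, 1.05 and 0.959 over all genes tested. Restricted to molecules within 200 nt of the end of their own gene, the genes past 2 and higher numbered 6 of 10, 6 of 10 and 0 of 9. Scaling by TMM shifted all log2 ratios by 0.34, 0.20 and 0.09 and left NSC over ESC-2i at 2.81 for mt-Cytb, 2.88 for mt-Nd1, 2.66 for mt-Nd2 and 2.03 for mt-Nd4.

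The label of a molecule and its position often disagreed, chiefly for tRNA labels. Molecules labelled with a tRNA gene made up 22.9%, 31.6% and 16.1% of all mitochondrial molecules, whereas those within 200 nt of the labelling tRNA's end made up 1.74%, 1.79% and 0.816%. Of 1386 molecules labelled mt-Tm, the methionine tRNA gene at 3845 to 3913, 96.6% lay elsewhere, with the most frequent site at 13889. All 1150 molecules labelled mt-Tg, the glycine tRNA gene at 9391 to 9458, lay elsewhere, with the most frequent site at 13888. The share lying elsewhere was 99.3% of 854 molecules for mt-Tf, 92.3% of 222 for mt-Tl1, 42.6% of 122 for mt-Tv and 41.7% of 103 for mt-Tt. A read was assigned to a gene that contained it or lay up to 20 kb upstream of it, a distance longer than the mitochondrial chromosome. Levels of these labels are therefore not levels of tRNAs.

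Most such molecules fell in 1 stretch of 579 bases, MT:13566-14144, between the end of mt-Nd5 and the start of mt-Cytb. The annotation places mt-Nd6 and mt-Te there, both on the minus strand, whereas 2514 of the 2516 molecules in the stretch carried a plus-strand label. Of these molecules 219 were labelled mt-Nd5, so the mt-Nd5 molecules described above and the stretch overlap. They carried 22 different labels, 84.8% of them of tRNA genes, over 65 sites, and 104 of the 107 kept cells had at least 1. In 153 of 884 pairs of a cell and a site the molecules were divided over 2 or more labels. The median cell used 4 labels, and its leading label covered 40.2% of its molecules there; mt-Tg led in 48 cells and mt-Tm in 37. UMI sequences were not analysed here, so whether a molecule was counted under more than 1 label is unknown.

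Of the sites inside mt-Nd6, 13888 had 354 molecules, 14031 had 277 and 13774 had 198. In the rRNA genes, sites 723, 1450 and 1890 had 127, 103 and 134 molecules, all labelled mt-Tf or mt-Tv. The sites are shown for their number of molecules, and none lies at a plus-strand gene end. Those inside mt-Nd6 had the most molecules there, with sites a few bases from a printed one left out. Those in the rRNA genes had the most molecules assigned to no gene at mitochondrial coordinates. These numbered 1013 at 723, 515 at 1450 and 674 at 1890, summed over populations. Each line gives 15 bases up to the site in lower case and the next 15 in capitals, on the plus strand of GRCm38, read from the transcripts of the genes that cover them.
Site 13774, MT:13760-13789: caaattaaaaaaaccTCTATAATCACCCCC
Site 13888, MT:13874-13903: acaaccaacatccccCCTAAATAAATTAAA
Site 14031, MT:14017-14046: cccaagacaaccaacCAAAAATAATGAACT
Site 723 in mt-Rnr1, MT:709-738: aggtattaaagtaagCAAAAGAATCAAACA
Site 1450 in mt-Rnr2, MT:1436-1465: ggtgatagctggttaCCCAAAAAATGAATT
Site 1890 in mt-Rnr2, MT:1876-1905: tgcctaaaggaaagaTCCAAAAAGATAAAA
The 15 bases after these sites held 26.7%, 60.0%, 60.0%, 66.7%, 53.3% and 66.7% A in the order printed. Over the 15138 windows of 15 bases that lie in annotated mitochondrial genes, read on the plus strand, the median was 33.3%, and 4.86% held at least 60% A. An oligo-dT primer can also bind A-rich stretches inside an RNA, and the study's filter removed sites followed by more A than any of these. Whether such binding took place here was not tested. The site with the most molecules in the stretch, 14141 (424 molecules), lay 3 bases before the stretch ends at the start of mt-Cytb.

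Taken as 1 feature, the stretch stood at 23.0, 34.6 and 58.3 molecules per 10000. Cells ran from 1.43 through a median of 19.3 to 61.8 for ESC-2i, from 0 through 25.0 to 119 for ESC-FCS and from 5.87 through 43.2 to 236 for NSC, so that all 3 ranges overlapped. NSC over ESC-2i was 2.54 (2.31 to 2.79), with batch pairs from 1.32 to 4.62, and NSC over ESC-FCS was 1.68 (1.53 to 1.85), with batch pairs from 0.972 to 2.92. Library batch moved the feature within each population, from 30.6 to 16.1, from 41.4 to 25.5 and from 74.6 to 40.2 between batches 1 and 2. In the ESC-FCS control cells it stood at 8.97, lower than in ESC-FCS by a factor of 3.86 (3.30 to 4.53). That was the largest such factor of the 7 features compared, of which the stretch and the molecules labelled mt-Nd5 near its end overlap.

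The labels used in the stretch also differed between sets of libraries. There the label mt-Tg had 346, 280 and 279 molecules in the 3 populations and 0 in the ESC-FCS control cells and in the 3 pools, whereas mt-Tm had 276, 236 and 334, 13 in the control cells and 0 in the pools. The ESC-2i pools had 681 molecules labelled mt-Co2 and 689 labelled mt-Tl2 in the stretch, against 0 of either in the 3 populations, and the ESC-FCS pool had 131 labelled mt-Tl1. Over the whole mitochondrial chromosome the ESC-2i pools had 734 labelled mt-Co2 and 757 labelled mt-Tl2, each label in 1 pool alone, with 0 of either within 200 nt of the labelling gene's end. Several gene labels with few molecules also rested on 1 cell: 20 of the 31 molecules labelled mt-Co3 in NSC, 13 of the 22 labelled mt-Atp6 in NSC, 41 of the 76 labelled mt-Tv in ESC-2i and 112 of the 257 labelled mt-Tf in ESC-2i.

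Genes of complexes IV and V were nearly absent from their own ends. The 3 complex IV genes, which encode cytochrome c oxidase subunits, had 1 (mt-Co1), 2 (mt-Co2) and 22 (mt-Co3) molecules within 200 nt of their ends in the 3 populations. The ATP synthase genes mt-Atp6 and mt-Atp8 had 23 and 0, and the complex I genes mt-Nd3 and mt-Nd4l had 9 and 1. By annotation the end of mt-Atp8, at 7969, lies inside mt-Atp6, which runs from 7927 to 8607. The end of mt-Nd4l, at 10173, lies inside mt-Nd4, which starts at 10167. For 6 genes, namely mt-Co1, mt-Co2, mt-Atp6, mt-Co3, mt-Nd3 and mt-Nd4l, most 30-base words of the last 100 bases also occurred in other annotated transcripts. Together those 6 had 58 molecules at their ends, and the other 9 mRNA and rRNA genes had 13968. Among those 9, mt-Atp8, with 19.7% of its words found elsewhere, had 0 at its end, mt-Nd6, with 23.9%, had 2, and mt-Nd2, with 39.4%, had 3458. The matching transcripts include 7 pseudogenes in a row on the minus strand of chromosome 1, from 24611535 to 24616197 on GRCm38, which match the mitochondrial stretch MT:6381-11042 at 98.8% to 100.0% identity. Reads that mapped to more than 1 place had been removed by the authors, and the pseudogenes themselves had 0 molecules over all libraries except Gm10222, which had 8. The part of these copies in the low counts was not tested, nor was that of the gene overlaps at mt-Atp8 and mt-Nd4l. The end of mt-Nd4, at 11544, lies outside the matching stretch. By label, mt-Co1 had 54 molecules in NSC and 6 in ESC-2i, a ratio of 21.8 (9.40 to 62.1), but 66 of its 67 molecules over the 3 populations lay elsewhere.

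The remaining members had few molecules. The rRNA gene mt-Rnr1 had 60 molecules, divided as 34, 14 and 12, of which 15 lay within 10 nt of its end and the other 45 within 200 nt. The minus-strand mRNA gene mt-Nd6 had 2 molecules, both in NSC. Of the 19 tRNA genes, 13 had fewer than 100 molecules each, from 1 for mt-Th to 49 for mt-Ts1. Molecules labelled with the threonine tRNA gene mt-Tt within 200 nt of its end numbered 36, 22 and 2, or 0.977, 0.971 and 0.132 per 10000, lower in NSC. Only 3 molecules with this label lay within 10 nt of that end, so the level is not that of the tRNA. The label's most frequent site, at 15422 on the far edge of mt-Tp, held 26, 12 and 0 molecules.

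The ESC-2i pools differed from ESC-2i cells in the order of their ends as well as in share. The share was 0.956% in the ESC-FCS pool (1713 of 179155 molecules) and 0.958% and 0.750% in the ESC-2i pools (4594 of 479483 and 3711 of 494799). Of 33 ESC-2i cells, 24 were above the mean of both ESC-2i pools. At the mt-Nd4 end the ESC-2i pools stood at 24.2 and 23.4 against 31.8 in cells, but at mt-Nd1 they stood at 4.42 and 2.93 against 15.8 and at mt-Nd2 at 11.0 and 4.08 against 33.0. The mt-Rnr2 end went the other way, at 8.49 and 11.9 against 4.26. Molecules labelled mt-Nd5 near its annotated end did so too, at 7.38 and 6.75 against 2.96. In the pools 546 of these 688 molecules lay in the stretch between mt-Nd5 and mt-Cytb, where labels differed between sets of libraries. Taken as 1 feature, the stretch stood at 20.9 and 19.1 in the pools against 23.0 in cells. The ESC-FCS pool was made on the same day as the ESC-FCS control cells, and the share of those cells was 1.20 times that of the pool (1.13 to 1.27), with 21 of 42 cells above the pool. Pool and control cells stood at 26.8 and 24.4 at mt-Nd4, at 13.5 and 14.4 at mt-Nd2, at 10.3 and 13.5 at mt-Nd1 and at 25.7 and 38.2 at mt-Cytb. The 4 mRNA ends made up 77.6% of mitochondrial molecules in the pool and 76.9% in the control cells, and mt-Rnr2 stood at 2.01 and 6.32. The order of the ends thus differed by type of library: mt-Nd4 was highest in all 3 pools, although its interval overlapped that of mt-Cytb in the ESC-FCS pool, and mt-Cytb was highest in each of the 4 sets of single cells.

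Within each population, cells differed in mitochondrial share by more than counting allows for. The variance of the share over cells was 72.8, 34.9 and 44.3 times the binomial variance at each cell's depth. The SD over cells was 1.12, 1.21 and 2.72 percentage points, and after every cell was thinned to 1000 gene molecules it was 1.12, 1.37 and 2.64, with 7.43, 9.88 and 14.0 times the binomial variance. The share was weakly related to depth, with Spearman's rho of −0.13, −0.021 and −0.16 over 33, 33 and 41 cells. Its rho with the spike-in share was −0.24, 0.32 and 0.30. These relations are across cells of 1 population, without named replicate cultures, that share reverse transcription pools of 4 wells.

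A test against the variation of spike-ins asked which genes varied between cells by a squared coefficient of variation (CV2) more than 0.25 above the technical level, with Benjamini-Hochberg adjusted p below 0.1. It rested on 16, 9 and 11 spike-ins, and in simulated data it also called genes made without such variation, more of them for ESC-FCS than its threshold allows. In ESC-2i it called 6 of 15 mitochondrial genes, against 0.719% of 3616 genes tested, in ESC-FCS 4 of 12, against 3.85% of 2026, and in NSC 5 of 14, against 2.16% of 1157. The NSC count depended on the spike-ins in the fit: with 1 spike-in fewer, an alternative added after seeing the data, 10 mitochondrial genes and 121 genes in all were called. Of genes counted mainly at their own ends, mt-Cytb and mt-Nd1 were called in ESC-2i, with CV2 of 0.867 (adjusted p = 3.98e-05) and 0.761 (adjusted p = 0.0167). Neither was called in ESC-2i batch 1 alone or at a margin of 0.5, and mt-Nd1 was called neither in batch 2 alone nor with size factors by total. Nuclear genes of similar mean had a median CV2 of 0.0636 and 0.108. In ESC-FCS mt-Cytb had a CV2 of 0.523 (adjusted p = 0.261) and in NSC 0.295 (adjusted p = 1.000), and whether CV2 differed between populations was not tested. The mt-Nd2 CV2 was 0.378, 0.541 and 0.286 and that of mt-Nd4 0.503, 0.592 and 0.362, and neither gene was called in any population. In ESC-FCS mt-Rnr2 was called with a CV2 of 1.34 (adjusted p = 0.0765), but not at a margin of 0.5 or in batch 2 alone.

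The other calls went mostly to labels that lay elsewhere or rested on few cells. They were mt-Tf in all 3 populations, mt-Tv and mt-Tl1 in both ESC populations, mt-Co3 in ESC-2i and NSC, and mt-Tg, mt-Co1 and mt-Atp6 in NSC. In ESC-FCS mt-Tv was an exception, with 23 of 26 molecules within 200 nt of its own end, spread over 15 cells (adjusted p = 0.0675). With the stretch between mt-Nd5 and mt-Cytb taken as 1 feature whatever the label, its CV2 was 0.512, 0.619 and 0.701, with adjusted p = 1.000, 0.129 and 0.0140. In ESC-2i batch 2 alone 1 of 14 mitochondrial genes was called, mt-Cytb, against 0.687% of all genes tested.

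**Figure D4:**
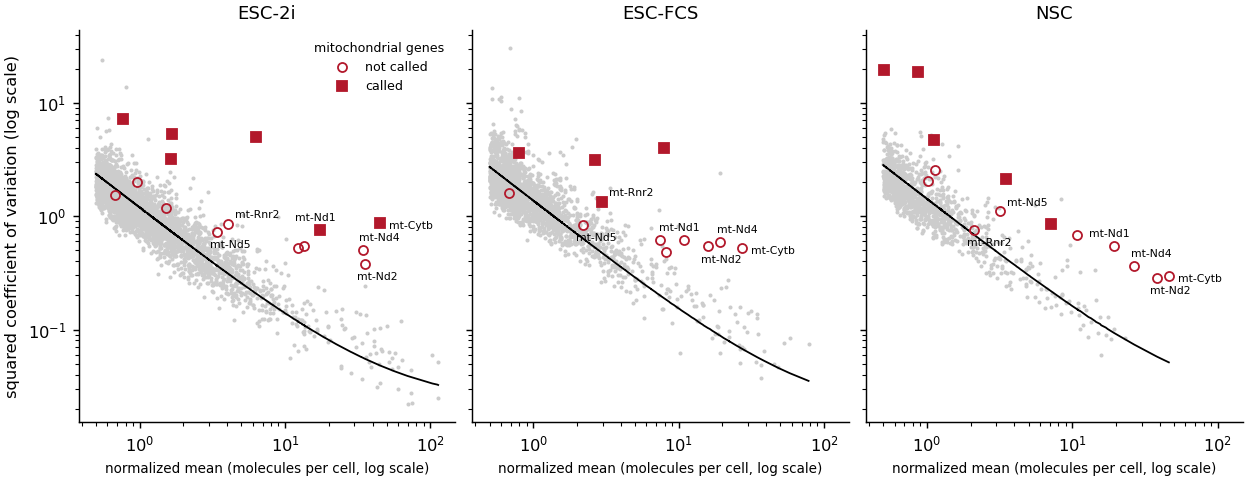
Squared coefficient of variation over cells against normalized mean molecules per cell (both axes logarithmic) for each population; grey points are nuclear genes, the black line is the technical level fitted to spike-ins, red squares are mitochondrial genes called variable and open circles those not called. In ESC-2i mt-Cytb lies at 0.867, where nuclear genes of similar mean have a median of 0.0636; in NSC 0 nuclear genes had a mean similar to that of mt-Cytb or mt-Nd2.

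The ends of the abundant mRNAs varied together over cells. Spearman's rho over the 6 pairs of the mt-Cytb, mt-Nd2, mt-Nd4 and mt-Nd1 ends ran from 0.78 to 0.92, from 0.62 to 0.86 and from 0.70 to 0.83. Against the stretch between mt-Nd5 and mt-Cytb the same ends gave 0.36 to 0.66, 0.40 to 0.63 and 0.53 to 0.66. Both members of each pair come from the same cell and library and share a denominator, and the values are given as a description over 33, 33 and 41 cells.

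Nuclear genes for respiratory chain subunits did not show the same differences. The 75 nuclear genes of complexes I to V took 3.86%, 3.32% and 3.37% of gene molecules, so that there were 0.445, 0.586 and 1.51 mitochondrial molecules per nuclear chain molecule. Over cells the nuclear share spanned a factor of 1.99, 1.92 and 2.73 from lowest to highest, against 10.3, 8.61 and 12.2 for the mitochondrial share. Spearman's rho between both shares was −0.032, 0.26 and 0.037. Of 36 nuclear complex I genes tested for NSC over ESC-2i, 1 was past a ratio of 2 and higher and 1 lower; of 9 complex III, 10 complex IV and 14 complex V genes, 0 were higher and 1 of each was lower. Over all genes tested in that comparison 19.3% were higher and 24.3% lower. Median ratios in these 4 lists lay between 0.786 and 1.01, where the mitochondrial complex I genes had 3.18 over 4 tested and mt-Cytb 3.56.

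Genes that maintain or express mitochondrial DNA were too sparsely counted for most of them to be compared. Of 14 such replication and transcription genes with a molecule, 4 could be compared for NSC over ESC-2i, and 2 were past 2 and higher: Tfam, which packages mitochondrial DNA, at 2.61 (1.14 to 6.04, 14 against 13 molecules), and Polg, the mitochondrial DNA polymerase, at 2.32 (1.21 to 4.41, 21 against 22), beside 19.3% of all genes. Each was higher in 3 of 4 pairs of batches. Of 14 genes for mitochondrial RNA processing and decay that could be compared, 2 were higher and 2 lower. The higher ones were Lrpprc, which stabilises mitochondrial mRNAs, at 2.22 (1.19 to 4.14) and Trnt1, which adds CCA to tRNAs, at 3.27 (1.77 to 6.16). The lower ones were Fastkd2 at 0.346 (0.0883 to 0.990) and Tbrg4 at 0.445 (0.211 to 0.854), both of the FASTK family of mitochondrial RNA-binding proteins. For ESC-FCS over ESC-2i, 2 of 5 replication and transcription genes were past 2 and higher and 0 lower. These were Tfam at 2.13 (0.972 to 4.76) and Polrmt at 2.44 (0.916 to 6.87). Of 16 processing and decay genes 1 was higher, Lrpprc at 2.10 (1.19 to 3.74), and 1 lower, Fastk at 0.318 (0.137 to 0.657). Over all genes tested in that comparison 8.17% were higher and 14.5% lower. For NSC over ESC-2i, of 67 mitochondrial ribosomal protein genes 6 were higher and 9 lower, shares below the 19.3% and 24.3% of all genes, with a median ratio of 1.06 beside 1.01.

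**Figure D5:**
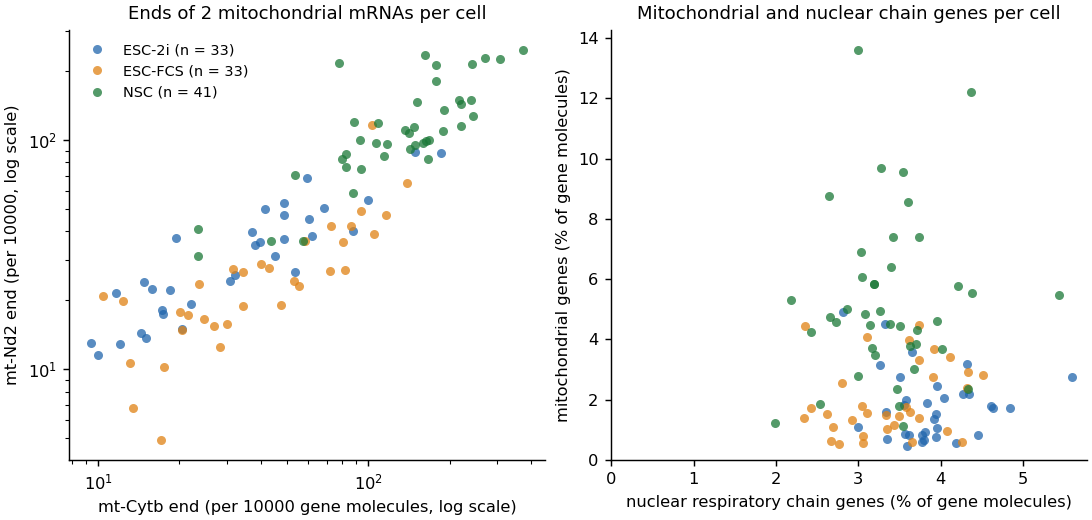
Left, molecules per 10000 gene molecules at the mt-Nd2 end against the mt-Cytb end in each kept cell (both axes logarithmic); right, share of gene molecules on mitochondrial genes against that on 75 nuclear respiratory chain genes (%). The 2 mRNA ends follow each other in all 3 populations (Spearman's rho 0.90, 0.85 and 0.75), while the right panel shows no such relation.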

How the data were processed

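The deposited tables hold UMI counts (whole-number molecules) and reads per 3′ end and cell. The authors aligned reads to GRCm38 with GSNAP, merged ends within 12 nt and UMIs within a mismatch, removed reads with more than 1 place and assigned ends to genes; HTSeq and R 3.0.2 are named in their processing notes. Here counts were summed per gene and cell, over kept cells, and divided by gene molecules (per 10000 or percent). Intervals are exact Clopper-Pearson, Poisson or conditional binomial, at 95%. Variation was tested as in the spike-in method of Brennecke and colleagues over genes with a normalized mean above 0.5, and the script was tested on simulated data. Python 3.11.15, numpy 2.4.6, pandas 2.3.3 and scipy 1.17.1 were used. Named were mitochondrial genes with at least 100 molecules and, of the nuclear lists, genes among the 2 highest or 2 lowest ratios; others named were chosen after their values were seen. Members and lists were chosen with earlier results of these data known. A planned genome search for copies was replaced by a search of GRCm38 transcripts, since only transcripts were used here.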

Additional observations from a re-analysis of the deposited data

Results flagged for a closer look

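In the 3 populations 3352 molecules were assigned to no gene at coordinates no higher than 16296, the highest position of a mitochondrial molecule, in data that the comparisons above leave out. They numbered 906 for ESC-2i, 1237 for ESC-FCS and 1209 for NSC, with 0 in the next 3 windows of that length. Of these molecules 88.7% had coordinates inside the 2 rRNA genes. Positions that also held mitochondrial molecules took 561 of the 906, 950 of the 1237 and 961 of the 1209. The sites 723, 1890 and 1450 printed above held 1013, 674 and 515 of the unassigned molecules, summed over populations. No chromosome is given for the unassigned molecules, so their mitochondrial origin was not tested. Counted as mitochondrial, they would raise the share to 1.96%, 2.48% and 5.83%.

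The pseudogene Gm10222 on chromosome 1, identical over its 294 bases to MT:9877-10170 in mt-Nd4l, had 8 molecules over all libraries, and the other 6 pseudogenes of that row had 0.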

How the results depend on the processing

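NSC had the highest share of the 3 populations under every alternative tried. With all mouse molecules as denominator the shares in ESC-2i, ESC-FCS and NSC were 1.64%, 1.83% and 4.75%, over reads 1.94%, 2.13% and 6.21%, without the cell with most mitochondrial molecules 1.65%, 1.84% and 4.92%, and per 100 nuclear molecules 5.36 in NSC. The median cell gave 1.57% in ESC-FCS and 4.75% in NSC, and leaving out both rRNA genes gave 1.67% and 1.88% in the ESC populations. Library batches alone gave 2.07% and 1.78% in ESC-FCS and 6.09% and 3.97% in NSC. Alternatives added after seeing the data gave 1.96%, 2.48% and 5.83% with unassigned molecules and 1.32%, 1.34% and 4.20% at own ends. Leaving out either ESC-2i pool gave 0.750% to 0.958%.

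Counts of genes past a ratio of 2 moved most with the minimum of molecules and with own ends. The share of all genes past these changed rules was not computed, so the counts show only how far they moved. With at least 1 molecule, 8 higher and 5 lower of 31 were counted for ESC-FCS over ESC-2i. For NSC over ESC-2i the counts were 20 and 1 of 34, and for NSC over ESC-FCS 19 were higher. With at least 50 molecules, 2 higher and 0 lower of 12 remained for ESC-FCS over ESC-2i and 0 lower for NSC over ESC-FCS. At own ends the higher genes numbered 0 of 9, 6 of 10 and 6 of 10 and the lower 0, 1 and 1. A ratio of 1.5 gave 2 lower for ESC-FCS over ESC-2i and 1 for NSC over ESC-2i, and means over cells gave 2 and, for NSC over ESC-FCS, 1. Of 177 single ratios recomputed, 151 stayed within the counting interval, 25 moved past it and 1 that was past 2 turned direction: mt-Tl1, NSC over ESC-2i, was 2.43 by label and 0.808 at its own end. That own-end ratio rested on 2 molecules in NSC and 6 in ESC-2i, too few to show a direction. Of all 177, 9 fell on the other side of 1, 5 of them at own ends: the mt-Tl1 ratio, mt-Tf for NSC over ESC-FCS (0.649 and 1.49) and mt-Tv in its 3 comparisons, such as ESC-FCS over ESC-2i (0.556 and 1.13). The mt-Tf own-end ratio rested on 2 molecules in each population. The other 4 were mt-Nd4 for ESC-FCS over ESC-2i (0.983, then 1.03 and 1.04) and mt-Tv for NSC over ESC-FCS (1.15, then 0.998 and 0.933), under other scalings or means over cells. A window of 5 nt held 44.7% of molecules.

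Variable mitochondrial genes numbered 12 of 15, 10 of 12 and 12 of 14 with no CV2 margin, against 3.24%, 11.2% and 7.09% of all genes tested. The percentages that follow in brackets are likewise of all genes tested. In ESC-2i batch 2 alone gave 1 of 14 (0.687%). In ESC-FCS a margin of 0.5 gave 2 of 12 (1.78%), no limit on the mean 8 of 30 (3.81%) and batch 1 alone 7 of 16 (3.48%). In NSC 1 spike-in fewer gave 10 of 14 (10.5%) and no limit on the mean 8 of 34 (1.38%). There batch 2 alone gave 3 of 11 (1.54%) and the stretch as 1 feature 3 of 12 (1.98%). Over all alternatives the count of all genes called ran from 9 to 117, from 36 to 546 and from 16 to 172. Mitochondrial molecules per nuclear chain molecule were 0.427 and 0.463 by batch in ESC-2i and 0.432 without rRNA, 0.664 and 0.495 in ESC-FCS, and 1.89 and 1.13 in NSC. No paired analysis was possible because no test compared the populations, for which the labels name no replicate culture. The planned search of the genome for copies was not run.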

Other observations

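Cells below 1000 gene molecules had shares of 1.70% in ESC-2i (15 cells), 3.49% in ESC-FCS (15 cells), 5.20% in NSC (7 cells) and 5.04% in ESC-FCS control (6 cells). The ESC-FCS and control values were above those of the kept cells, and the NSC value was near them.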
